A study of Homo sapiens with 2 samples.

Results

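The genes described here were 35 members of the ubiquitin conjugation system: 30 ubiquitin-conjugating enzymes (E2), which include the inactive E2 variants UBE2V1 and UBE2V2, the ubiquilins UBQLN1, UBQLN2 and UBQLN4, the ubiquitin-activating enzyme UBA1 and the polyubiquitin gene UBB. They were listed by gene family and no cutoff on their measured values was used, but earlier results of these data were known when the list was made. Every non-control probe whose RefSeq accession led to one of these symbols was taken, which gave 67 of the 41000 different probes on the array. Among 16153 named genes with a usable probe, all 35 members were present, 13 of them with 1 probe and 22 with 2 or more.

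Total RNA was compared between 2 clones of SKOV3, an established human ovarian adenocarcinoma cell line. The knockdown clone, clone 3 (cl-sh3), stably carried an shRNA against the transcription factor RUNX2 in the pLKO.1-puro vector. The control was a mock-transfected clone with a scramble sequence in the same vector. Both had been infected with lentivirus in the presence of polybrene, selected with puromycin and grown under the same conditions, and no further treatment or time course was part of the comparison. The question it addressed was which transcripts differ when RUNX2 is suppressed. Each group was 1 clone, so an effect of the knockdown and a difference between clones cannot be told apart.

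The RNAs were hybridized to Agilent Whole Human Genome arrays in 2 colours, once with cl-sh3 in Cy5 (hybridization 1) and once with the dyes exchanged (hybridization 2). This dye swap was counted as 1 replicate. No value below therefore has a replicate check and no test was made. The labels do not say whether both hybridizations used the same RNA extracts, so the difference between them holds labelling and hybridization error and may also hold that of the extraction. All ratios are log2 values of cl-sh3 over control, given in the order hybridization 1, hybridization 2, so that 1 is a 2-fold higher and -1 a 2-fold lower level in cl-sh3. Across all probes that passed the detection filter (kept probes), the hybridizations differed by a median of 0.22 log2 units, with a 95th percentile of 0.63. Between 77.3% and 93.9% of spots per channel were well above background, against at most 1.96% of the negative control spots, and 0 spots were saturated. The number of arrays limited the precision.

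The brightest of 3 RUNX2 probes gave -2.04 and -1.30, a mean of -1.67 or a 3.18-fold lower level in cl-sh3. The other RUNX2 probes gave 0.17 and -0.13, and -0.29 and -0.17. Probes of 5 of 5 epithelial markers and 4 of 4 markers of ovarian carcinoma or of SKOV3 were well above background for both RNAs in both hybridizations. So were those of 3 of 4 markers of other cells (CD14, PTPRC and VWF, but not PECAM1), and their part in the results was not tested. The probes of MUC16 and WT1 were dim, with mean log2 intensities of 7.68 and 7.90, against 7.71 for PTPRC, 8.04 for VWF and 9.96 for CD14. Detection of MUC16 and WT1 therefore does not set ovarian carcinoma apart from other cells. In bulk RNA, fewer cells that express a gene and less RNA per cell cannot be told apart.

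Ubiquitin is a small protein that is joined to other proteins by a relay of enzymes. An E1 enzyme activates it, an E2 enzyme takes it over, and an E3 ligase brings the loaded E2 to the target, where the choice of E2 often sets which type of ubiquitin chain is built and so whether the target is degraded or takes part in signalling or DNA repair. Ubiquilins act after conjugation: their ends bind the proteasome and ubiquitin chains, so that they can carry marked proteins to degradation.

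Most of the members were measured at close levels in the knockdown and control clones, as were most named genes. At the 2-fold level in both hybridizations, 0 of 35 member genes were called by their brightest probe, where 0.136% of all named genes were higher and 0.52% lower. With shares this small, a count of 0 among 35 genes does not set the members apart. At 1.5-fold in both, UBE2T was higher, while UBQLN1 and UBE2H were lower, beside 1.6% of all named genes that were higher and 2.61% that were lower. The median ratio of the members was -0.01, with -0.08 in hybridization 1 and 0.03 in hybridization 2, and the median of all named genes was 0.01. Of the members, 13 were below 0 in both hybridizations, 12 above 0 in both and 10 of opposite sign, beside 28.4% of all named genes below and 30.9% above 0 in both.

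By probe, 0 of 67 passed 2-fold in both hybridizations, where 0.122% of all kept probes were higher and 0.394% lower. At 1.5-fold, 1 member probe was higher (UBE2T) and 5 were lower, 3 of UBQLN1 and 1 each of UBE2H and UBE2Q2. Of all kept probes 1.35% were higher and 2.32% lower. The 3 UBQLN1 probes measure the same gene and are not separate observations of the system. Of the member probes 28.4% were of opposite sign in the hybridizations, and 42.9% of all kept probes were. All 67 member probes had both RNAs well above background in both hybridizations, which was not required of a kept probe, and 0 had a spot marked as an outlier.

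**Figure D1:**
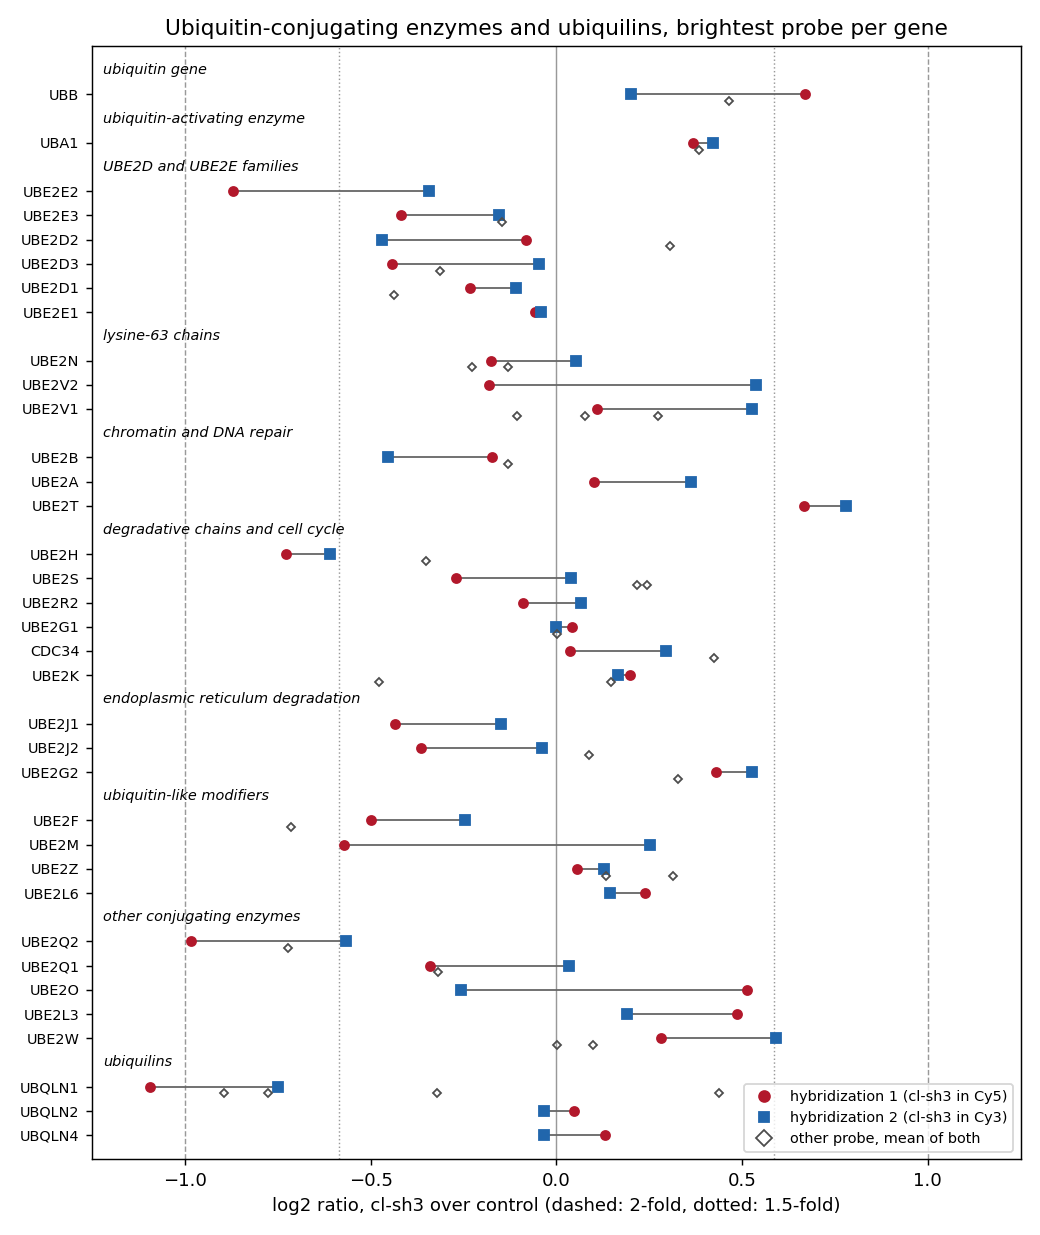
Log2 ratio of cl-sh3 over control (x axis) for the brightest probe of each of the 35 members, grouped by role, with circles for hybridization 1, squares for hybridization 2 and open diamonds for the mean of each other probe. UBQLN1 and UBE2H lay below the 1.5-fold line in both hybridizations and UBE2T above it, while 10 members changed sign between the hybridizations.

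UBQLN1, the ubiquilin found in most tissues, was the member with the lowest ratio. Its brightest probe had a normalized log2 signal of 12.47 in cl-sh3 and 13.56 in the control in hybridization 1, and of 12.83 and 13.57 in hybridization 2. Both cl-sh3 values lay below both control values, but these are readings of 1 pair of clones and not replicates. How many of all named genes show such a separation was not counted, here or for the genes below. UBA1, with a mean of only 0.40, showed it too, in the higher direction. The UBQLN1 ratios were -1.09 and -0.75, a mean of -0.92 or a 1.89-fold lower level. It passed 2-fold in hybridization 1 alone.

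UBQLN1 was also the member whose probes differed most among themselves, and the one with the most probes (5). Numbered from the brightest, probe 2 gave -0.18 and -0.46, probe 3 gave -0.89 and -0.66, probe 4 gave -0.06 and 0.93, and probe 5 gave -1.02 and -0.77. Probes 1, 3 and 5 were thus lower by more than 1.5-fold in both hybridizations, probe 2 by less, and probe 4 went from near 0 to clearly above 0 with the exchange of the dyes. The hybridizations of probe 4 differed by 0.99 log2 units, past the 95th percentile of 0.63. Of the 5 probes, 3 carry the accession of one UBQLN1 transcript and 2 that of another, and both sets hold a probe past 1.5-fold and a probe that is not. In the ratios of the scanner software, probe 5 stood at -1.38 and -1.14, and it was the 1 member probe past 2-fold in both hybridizations there.

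**Figure D2:**
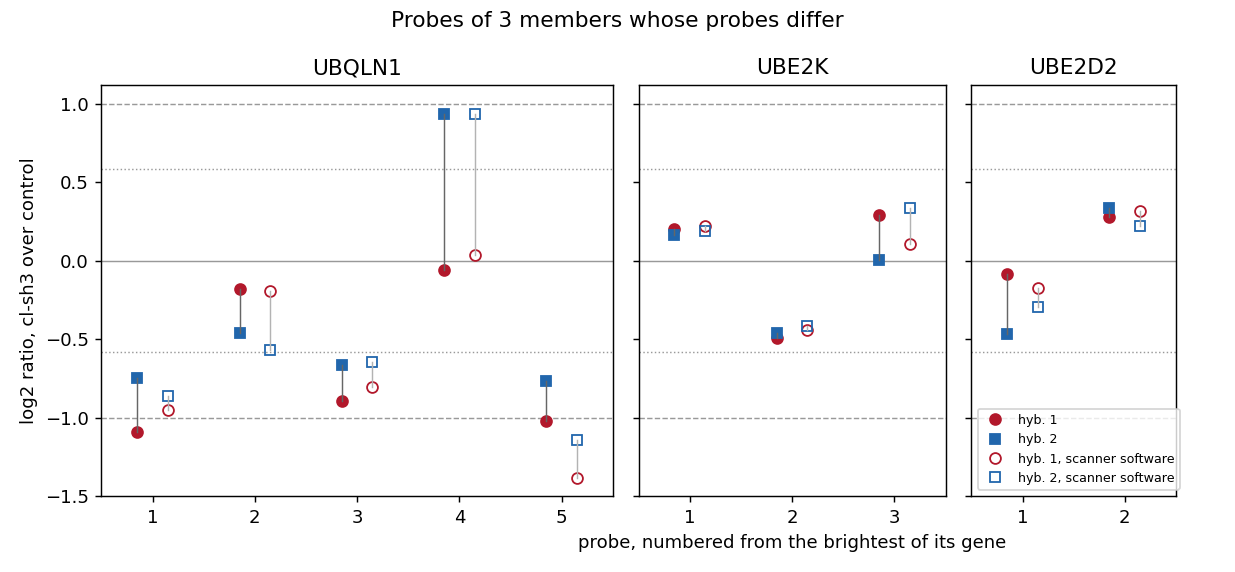
Log2 ratio of cl-sh3 over control (y axis) for each probe of UBQLN1, UBE2K and UBE2D2, numbered from the brightest; filled symbols are the loess-normalized values and open symbols those of the scanner software, with circles for hybridization 1 and squares for hybridization 2. UBQLN1 probes 1, 3 and 5 lay below the 1.5-fold line in both hybridizations, and UBQLN1 probe 4, UBE2K probe 2 and UBE2D2 probe 2 lay away from the brightest probe of their gene.

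The other ubiquilins were near 0. UBQLN2, a gene mutated in inherited amyotrophic lateral sclerosis, gave 0.05 and -0.03. UBQLN4 gave 0.13 and -0.03, and 0.07 and 0.22 in the scanner software's ratios. Its probe was the dimmest of all member probes, with a mean log2 intensity of 7.86. At this level a ratio near 0 does not show that the gene is unchanged. Each of these 2 genes had 1 probe, so the spread between probes seen for UBQLN1 could not be looked at.

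UBE2T, the E2 that works with the ligase FANCL on the Fanconi anaemia protein FANCD2, had the highest ratio of the members. Its 1 probe had a normalized log2 signal of 13.04 in cl-sh3 and 12.37 in the control in hybridization 1, and of 13.23 and 12.45 in hybridization 2. Both cl-sh3 values lay above both control values. The ratios of 0.67 and 0.78 gave a mean of 0.72, a 1.65-fold higher level, and differed by 0.11 between the hybridizations. The scanner software gave 0.75 and 0.93.

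The UBE2T partner FANCL, measured by 1 probe, gave -0.02 and -0.006. USP1, the protease that removes ubiquitin from FANCD2, was lower, with -0.89 and -0.76 and a 1.77-fold lower mean. UBE2A and UBE2B, the near-identical human RAD6 enzymes of chromatin and of DNA damage tolerance, lay on opposite sides of 0: UBE2A gave 0.10 and 0.36, and UBE2B -0.17 and -0.45. The other UBE2B probe, at -0.33 and 0.07, was of opposite sign in the hybridizations.

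The sequence upstream of 3 members is shown because RUNX2 is a transcription factor: UBQLN1 and UBE2T, which have the lowest and highest ratio, and UBA1, one of the members with a RUNX core. Each window runs 5′ to 3′ on the gene's strand, from 250 bases before to 50 bases from the transcription start on, and is taken from RefSeq on GRCh38.p14. Capitals mark a match, on either strand, to the RUNX core TGTGGT (reverse strand ACCACA), the CCAAT box CCAAT (reverse strand ATTGG) or the C/EBP-ATF element TGATGNAA. No match of one motif overlaps a match of another in these windows. The windows lie at chr9:83707909-83708208 (minus strand) for UBQLN1, chr1:202341887-202342186 (minus strand) for UBE2T and chrX:47190597-47190896 (plus strand) for UBA1.
UBQLN1: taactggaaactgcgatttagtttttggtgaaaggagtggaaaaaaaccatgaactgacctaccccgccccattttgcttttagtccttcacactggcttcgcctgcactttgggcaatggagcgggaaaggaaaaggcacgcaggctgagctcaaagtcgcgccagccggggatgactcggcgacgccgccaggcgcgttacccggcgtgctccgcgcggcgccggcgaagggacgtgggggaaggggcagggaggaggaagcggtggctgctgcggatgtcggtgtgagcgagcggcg
UBE2T: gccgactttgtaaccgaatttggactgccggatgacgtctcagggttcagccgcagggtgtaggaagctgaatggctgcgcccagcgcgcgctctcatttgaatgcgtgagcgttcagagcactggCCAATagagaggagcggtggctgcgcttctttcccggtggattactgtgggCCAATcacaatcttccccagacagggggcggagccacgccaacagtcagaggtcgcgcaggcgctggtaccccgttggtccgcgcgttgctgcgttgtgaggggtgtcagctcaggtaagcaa
UBA1: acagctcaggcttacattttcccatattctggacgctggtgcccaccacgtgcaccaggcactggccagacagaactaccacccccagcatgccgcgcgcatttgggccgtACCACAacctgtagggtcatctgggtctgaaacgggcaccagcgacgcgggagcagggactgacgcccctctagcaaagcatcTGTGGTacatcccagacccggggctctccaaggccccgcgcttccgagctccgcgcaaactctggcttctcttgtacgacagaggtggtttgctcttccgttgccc

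The UBQLN1 window held none of the 3 motifs. The UBE2T window held 2 CCAAT boxes, which begin at positions -124 and -73 from the start of transcription, and no RUNX core. The UBA1 window held 2 RUNX cores, at -139 and -56, and the other UBA1 window in the table held 1 at 43. The 35 members had 43 windows for 29 genes, and 6 genes had no entry (UBQLN4, UBE2H, UBE2Q1, UBE2B, UBE2W and UBE2V2). A RUNX core was present in 4 of the 43 windows (9.3%), from 3 genes (UBE2K, UBE2D3 and UBA1), and in 13.1% of all 35116 windows. A CCAAT box was present in 12 of 43 (27.9%) and in 34.6% of all, and the C/EBP-ATF element in 0 of 43 and in 3.62% of all. The brightest probes of the 3 genes with a RUNX core had mean ratios of 0.18 for UBE2K, -0.24 for UBE2D3 and 0.40 for UBA1. A match is a stretch of letters and no evidence that a factor binds there, and the windows cover only the bases next to the start.

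At the top of the relay, both genes were higher in both hybridizations, by less than 1.5-fold in the mean. UBA1, the E1 that loads most E2 enzymes, gave 0.37 and 0.42, and its other probe gave 0.49 and 0.28. UBB, which encodes ubiquitin repeats, gave 0.67 and 0.20, and its other probe 0.72 and 0.21. The UBB probes thus passed 1.5-fold in hybridization 1 alone, when cl-sh3 carried Cy5. With each array centred on its median in place of loess, the mean of UBB was 0.69 and not 0.43. Ubiquitin-coding repeats are nearly identical within the genome, and the probe sequences were not used here, so how far each UBB probe reads 1 gene was not tested.

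UBE2D1, UBE2D2, UBE2D3 and the UBE2E enzymes are closely related E2s that work with a broad range of RING and HECT ligases. Each of these 6 members had a brightest probe below 0 in both hybridizations, as 28.4% of all named genes had, with a median of -0.26, and none reached 1.5-fold in both. UBE2D4, a relative that is not among the members, gave -0.02 and 0.24. Under median centring the median of the 6 was -0.12, with 6 of 6 means below 0 but 5 below 0 in both hybridizations, and in the scanner software's ratios 5 were below 0 in both. UBE2E2 was the lowest. Its 1 probe had a normalized log2 signal of 8.87 in cl-sh3 and 9.74 in the control in hybridization 1 and of 9.36 and 9.70 in hybridization 2, which gave ratios of -0.87 and -0.34 and a 1.52-fold lower mean. Both cl-sh3 values lay below both control values, yet the ratios differed by 0.53. UBE2E3 gave -0.42 and -0.16, with -0.06 and -0.23 for its other probe, and UBE2E1 gave -0.06 and -0.04.

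Among the UBE2D members, whose proteins differ at few residues, UBE2D1 gave -0.23 and -0.11 and its other probe -0.32 and -0.55. UBE2D3 gave -0.44 and -0.05, with -0.20 and -0.43 for its other probe. Each of the 4 probes of UBE2D1 and UBE2D3 was below 0 in both hybridizations. The UBE2D2 probes disagreed: its brightest probe gave -0.08 and -0.47, while the other gave 0.28 and 0.33, above 0 in both. With the median over all probes of a gene, UBE2D2 stood at 0.01 and 5 of the 6 means were below 0. Shared sequence between these transcripts may be read by the same probe, which was not tested.

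UBE2N, the E2 that builds lysine-63-linked chains, gave -0.18 and 0.05, and its other probes -0.46 and 0.01, and -0.24 and -0.02. Its partners are inactive variants that hold the acceptor ubiquitin. UBE2V1 gave 0.11 and 0.53, and its 3 other probes had means between -0.11 and 0.27. UBE2V2, with 1 probe, gave -0.18 and 0.54, a difference of 0.72 between the hybridizations. None of the 3 genes was past 1.5-fold in both, and each of their brightest probes read higher when cl-sh3 carried Cy3.

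Of the enzymes that build degradative chains or act in the cell cycle, UBE2H stood apart. UBE2H, the E2 of the CTLH (MAEA) ligase complex, had a normalized log2 signal of 11.00 in cl-sh3 and 11.73 in the control in hybridization 1, and of 11.17 and 11.78 in hybridization 2. Both cl-sh3 values were below both control values. The ratios were -0.73 and -0.61, a 1.59-fold lower mean, and the other probe gave -0.18 and -0.52. UBE2H lost its 1.5-fold call under median centring, with the median over its probes and in the scanner software's ratios, where hybridization 2 stood at -0.55.

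CDC34 and UBE2R2, the E2 pair of the SCF cullin ligases, gave 0.04 and 0.30, and -0.09 and 0.07. The other CDC34 probe gave 0.49 and 0.37, above 0 in both hybridizations like the first. UBE2S, which extends lysine-11 chains for the anaphase-promoting complex, gave -0.27 and 0.04 with its brightest probe. Its other 2 probes gave 0.31 and 0.13, and -0.07 and 0.56, so that the gene had probe means on both sides of 0. UBE2G1, which extends lysine-48 chains on targets of CRL4 ligases, gave 0.04 and -0.002. Its other, dimmer probe gave 0.21 and -0.21, also of opposite sign in the hybridizations.

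UBE2K, an E2 for lysine-48 chains, gave 0.20 and 0.17 with its brightest probe. Of its other probes, the brighter gave -0.49 and -0.46 and the dimmer 0.29 and 0.002. The 2 brighter probes each repeated closely under the dye swap, differing by 0.03, and had opposite signs. UBE2K and UBQLN1, with 3 and 5 probes, were the 2 members whose lowest and highest probe means differed by more than 0.63. That value is the 95th percentile of the difference between hybridizations for the same probe. It is not a like measure, since a range over several probes tends to grow with their number. In all, 6 members had probe means of opposite sign. Neither count was made for all named genes.

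In the endoplasmic reticulum, membrane-bound UBE2J1 and UBE2J2 and soluble UBE2G2 serve the degradation of misfolded proteins. UBE2G2 was on the high side, with 0.43 and 0.53, a mean of 0.48, and with 0.44 and 0.21 for its other probe. UBE2J1 gave -0.43 and -0.15. UBE2J2 gave -0.36 and -0.04, and its other, dim probe gave -0.24 and 0.41. None of the 3 was past 1.5-fold in both hybridizations.

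A further group of members serves ubiquitin-like proteins. UBE2F and UBE2M pass NEDD8 on to cullins. UBE2F gave -0.50 and -0.25, and its other probe was lower, at -0.93 and -0.50, so both probes were below 0 in both hybridizations. UBE2M, with 1 probe, gave -0.57 and 0.25, a difference of 0.82 between the hybridizations, which went in opposite directions. UBE2L6, the E2 of the interferon-induced modifier ISG15, gave 0.24 and 0.14. UBE2Z, which is loaded by UBA6 and can pass on FAT10, gave 0.05 and 0.13, with other probes at 0.32 and 0.31, and -0.03 and 0.30.

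UBE2Q2, an E2 with a long N-terminal extension, was the member nearest to a call without having one. Its brightest probe had a normalized log2 signal of 9.78 in cl-sh3 and 10.76 in the control in hybridization 1, and of 10.20 and 10.77 in hybridization 2. Both cl-sh3 values were below both control values. The ratios were -0.98 and -0.57, a 1.71-fold lower mean, and the second value lay just short of 1.5-fold. The other probe gave -0.73 and -0.72 and was past 1.5-fold in both. UBE2Q1, its relative, gave -0.34 and 0.03, and -0.49 and -0.14 with its other probe.

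Of the remaining enzymes, UBE2L3, which serves HECT and RBR ligases such as parkin, gave 0.49 and 0.19. UBE2W, which joins ubiquitin to the N-terminus of proteins, gave 0.28 and 0.59, while its dimmer probes had means of 0.002 and 0.10. UBE2O, a large enzyme that combines E2 and E3 functions, gave 0.51 and -0.26, a difference of 0.77. In 5 member probes the hybridizations differed by more than 0.63: those of UBE2M, UBE2O and UBE2V2, UBQLN1 probe 4 and the dim UBE2J2 probe. The median difference over the 67 member probes was 0.26, against 0.22 for all kept probes.

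**Figure D3:**
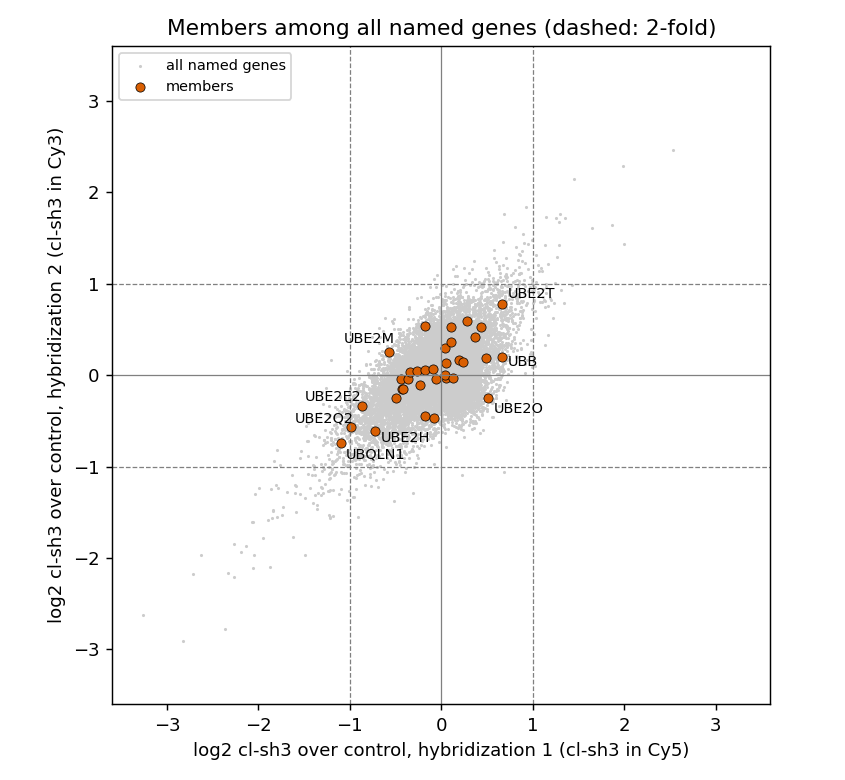
Log2 ratio of cl-sh3 over control in hybridization 1 (x axis) against hybridization 2 (y axis) for the brightest probe of all 16153 named genes (grey) and of the 35 members (orange), with dashed lines at 2-fold. The members lay within the bulk of the genes, 0 of them past 2-fold in both hybridizations; UBE2M and UBE2O lay in the quadrants of opposite sign.

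Taking every probe of a gene together, 9 members had every probe below 0 in both hybridizations and 8 had every probe above 0 in both, beside 23.3% and 24.9% of all named genes. Of these, 6 of the lower and 4 of the higher genes had 2 or more probes. The lower genes with several probes were UBE2D1, UBE2D3, UBE2E3, UBE2F, UBE2H and UBE2Q2, and the higher ones CDC34, UBA1, UBB and UBE2G2. UBQLN1 was in neither set, because of its probe 4.

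Other genes of the pathway were taken from a list of 103, of which 98 had a usable probe: precursors of ubiquitin and its relatives, other E1 and E2 enzymes, ligases that work with the members, shuttle factors and deubiquitinating enzymes. Their median ratio was -0.01, with 40 below 0 and 35 above 0 in both hybridizations, beside 28.4% and 30.9% of all named genes. At 2-fold in both, 1 was higher and 2 were lower, beside the 0.136% and 0.52% of all named genes given above. At 1.5-fold in both, 1 was higher and 4 were lower, beside 1.6% and 2.61% of all named genes.

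FBXW11, an F-box protein that gives SCF ligases their targets and so works with CDC34, gave 1.29 and 1.67, a 2.78-fold higher mean. Its other probe, at 0.29 and -0.09, did not show this. AKTIP, a protein with an E2 fold but no active-site cysteine, was 2.50-fold lower, with -1.35 and -1.29, and its other probe gave -1.26 and -1.14. HERPUD1, a protein of endoplasmic reticulum degradation that binds ubiquilins, was 2.41-fold lower, with -1.46 and -1.09.

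RAD23B, like the ubiquilins a shuttle with a ubiquitin-like and ubiquitin-binding ends, was 1.84-fold lower, with -0.86 and -0.90. Its other probes gave -0.67 and -0.90, and, for the dimmest, 0.60 and 0.17. USP1, given with UBE2T above, was the other gene past 1.5-fold. In the scanner software's ratios HERPUD1 was no longer past 2-fold in both, at -1.59 and -0.91, while FBXW11 and AKTIP were. With the median over all probes of a gene, FBXW11 was no longer past 2-fold in both.

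By group, the medians lay between -0.22 for the 6 other E2 enzymes and variants, AKTIP included, and 0.17 for the 11 precursors. The 47 ligases had a median of 0.004. Of the 16 deubiquitinating enzymes 13 had a mean below 0, with a median of -0.12, and 9 were below 0 in both hybridizations, beside 47.1% of all named genes with a mean below 0 and 28.4% below 0 in both. Under median centring 11 of these 16 means were below 0 and 4 genes were below 0 in both. In the scanner software's ratios the counts were 10 and 8.

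**Figure D4:**
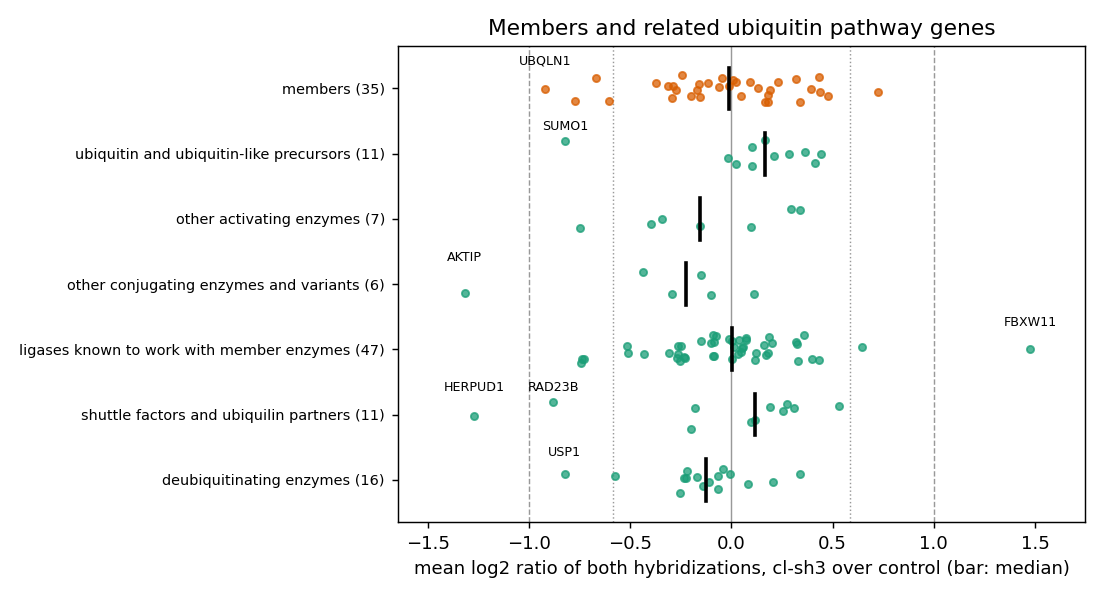
Mean log2 ratio of cl-sh3 over control over both hybridizations (x axis) for the 35 members and for 98 other genes of the pathway by group (rows, with the number of genes), 1 point per gene and a bar at the median. The medians lay near 0 in every row, and FBXW11, AKTIP and HERPUD1 lay past the 2-fold lines, outside the range of the members.

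The members with the largest ratios stayed on one side of 0 under every way of processing tried. Part of this was fixed in advance. A gene with the same sign in both hybridizations cannot cross 0 with each hybridization alone. All member probes passed the detection filters and none was flagged, so those alternatives could hardly move a value, and the deposited table repeats the software's ratios. Over 11 alternatives, including each hybridization alone, UBQLN1 ranged from -1.09 to -0.75, UBE2Q2 from -0.98 to -0.57, UBE2H from -0.73 to -0.51 and UBE2T from 0.67 to 0.84. UBA1 ranged from 0.35 to 0.44 and UBE2G2 from 0.40 to 0.56. The widest ranges were those of genes whose hybridizations differed: UBE2M from -0.57 to 0.25, UBE2O from -0.26 to 0.51 and UBE2V2 from -0.18 to 0.54. UBE2E2, from -0.87 to -0.34, and UBB, from 0.20 to 0.69, kept their direction with a wide range.

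**Figure D5:**
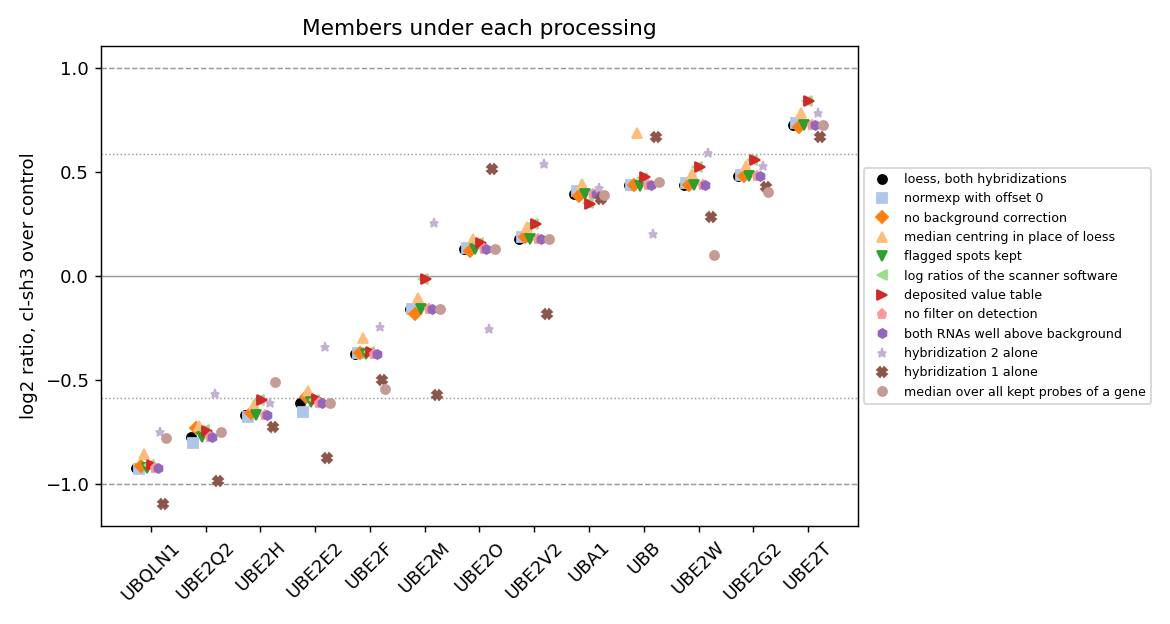
Log2 ratio of cl-sh3 over control (y axis) for 13 members (x axis) under each way of processing, 1 symbol per way, with the loess-normalized mean of both hybridizations in black. The symbols of UBQLN1, UBE2Q2, UBE2H and UBE2T stayed on 1 side of 0 with ranges of 0.35, 0.42, 0.22 and 0.17, while those of UBE2M, UBE2O and UBE2V2 crossed 0 between the hybridizations.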

How the data were processed

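Labelled cRNA of the 2 clones was measured on 2 arrays with exchanged dyes. They were counted as 1 replicate, since the labels name no separate extracts. The deposited scanner files hold spot intensity values (median pixel signal and local background) and a log10 ratio of red over green, per the file headers from Feature Extraction 10.5.1.1 with annotation build hg18 (the submitters' notes name version 8.5.1.1). The authors' deposited value table holds the same log10 ratios to within 0.00245 and 0.005, with column medians of 0.0108 and 0. It was used only as an alternative.

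Intensities were corrected with normexp (offset 50), 1639 control spots and outlier-flagged spots (153 and 144) were left out, and each array was loess-normalized with limma 3.58.1 in R 4.3.3. Replicate spots were averaged for each probe, and the sign of hybridization 2 was turned by the dyes in the labels. Probes were required to have, for the same RNA in both hybridizations, at least 0.5 of their spots well above background, which left 36065 of 41000 probes (88%), 36060 of them with a ratio in both. Counts, medians and promoter matches were computed in Python 3.11.15, and the steps were tested on simulated data.

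Genes were named through the RefSeq table of GRCh38.p14, which held 18023 of the 18715 RefSeq accessions on the array. The RUNX2 accession was named through a gene list of the study, of which no value was used. A gene was represented by its brightest kept probe. All members were named, and of the related list those past 1.5-fold in both hybridizations and the 5 with the largest mean. FANCL, a direct partner of a member, was chosen after its values were seen. UBE2D4, a relative of the UBE2D members, was given as well and met neither rule. Some genes are not reported here. The members and lists were chosen with earlier results of these data known. Alternatives were another offset, no background correction, median centring, flagged spots kept, other detection filters, the software's ratios, the deposited table, each hybridization alone, the mean of both and the median over a gene's probes.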

Additional observations from a re-analysis of the deposited data

How the results depend on the processing

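With 1 replicate, no setting adds a measure of biological spread. The count of members past 1.5-fold in both hybridizations was 3, and it was 5 when the mean of both had to pass (UBE2E2 and UBE2Q2 added) and between 4 and 6 with 1 hybridization alone. The count of members past 2-fold was 0, and between 0 and 1 (UBQLN1 in hybridization 1) with 1 hybridization alone. For member probes it was 0, between 0 and 2 with 1 hybridization alone, and 1 with the scanner software's ratios and 1 with the deposited table. The related genes past 2-fold numbered 3, between 4 and 5 with 1 hybridization alone, and 2 with the software's ratios or the deposited table (HERPUD1 lost) and with the median over a gene's probes (FBXW11 lost). How many of all named genes or probes pass under each alternative was not counted. These alternative counts therefore do not set the members or the related genes apart. RUNX2 was at -1.67, between -2.04 and -1.30 with 1 hybridization alone, and at -0.23 with the median over all its probes. The median of the members lay between -0.08 and 0.03 with 1 hybridization alone.

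Of the 35 members, 24 kept the sign of their mean under all 11 alternatives, and 11 did not: UBE2D2, UBE2G1, UBE2M, UBE2N, UBE2O, UBE2Q1, UBE2R2, UBE2S, UBE2V2, UBQLN2 and UBQLN4. The same count was not made for all named genes, so it does not show whether the members are more stable than others. Several alternatives hardly move a member's value or repeat one another. An offset of 0 added UBE2Q2 to the members past 1.5-fold, median centring removed UBE2H, and the software's ratios, the deposited table and the median over a gene's probes exchanged UBE2H for UBE2Q2. The cause was not tested. No paired analysis was possible because the dye swap is 1 replicate of 1 pair of clones.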
